A study of Homo sapiens with 12 samples.

Results

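A set of 10 genes of the NF-kappaB pathway and its chemokine output was followed across xenograft tumours of a human lung cancer line: CXCL1, CXCL2, CXCL3, CXCL8, CCL20, NFKB1, NFKBIA, TNFAIP2, TNFAIP3 and BIRC3. The list was drawn up by gene name, and each gene was then found through the array's probe identifiers. A probe was found for 9 of them, and 8 gave a signal above background and were tested, among 12300 tested genes in all. CXCL3 had 1 probe, detected on 0 of 12 arrays, with a normalised log2 signal between 4.82 and 5.69, so only an upper bound on its level is known. BIRC3 was not analysed here, because no probe carried its symbol in the probe table used.

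H3122, the cell line behind all 12 mouse xenografts, is an established line of human lung adenocarcinoma driven by the EML4-ALK fusion kinase. Of the tumours 2 were controls, and the other 10 had received ceritinib, an inhibitor of the ALK kinase, at 75 mg/kg (4 tumours), 87.5 mg/kg (3 tumours) or 100 mg/kg (3 tumours). The study describes the treated tumours as having shrunk at first and then become resistant. No treated tumour taken before resistance was among the 12, so a response to the drug and a trait of resistant tumours cannot be told apart. The labels do not say what the control animals received, nor whether each tumour came from a mouse of its own. All tumours descend from 1 cell line, and the p-values measure the spread between these tumours.

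NF-kappaB is a family of dimeric transcription factors held in the cytoplasm by inhibitor proteins of the IkappaB family. Signals from tumour necrosis factor, interleukin-1 and Toll-like receptors lead to phosphorylation and destruction of the inhibitor, after which the dimer enters the nucleus and binds short DNA sites called kappaB sites. Its best known targets are chemokines that attract neutrophils and lymphocytes, and its own inhibitors NFKBIA and TNFAIP3, which close a negative feedback loop. In epithelial tumours such as lung adenocarcinoma the cancer cells themselves can make these chemokines.

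The reference sequence just upstream of these genes shows the sites through which the pathway is known to act. Each stretch below lies in the window from 250 bases before to 50 bases after the gene start in RefSeq (GRCh38.p14), is written 5′ to 3′ on the strand of the gene, and has the matches to a kappaB motif, on either strand, in capitals. The chemokine genes come first, then the inhibitors and the subunit gene NFKB1.
CXCL1: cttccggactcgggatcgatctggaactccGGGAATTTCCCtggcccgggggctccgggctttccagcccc
CXCL2: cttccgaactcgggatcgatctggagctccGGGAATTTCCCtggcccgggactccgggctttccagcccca
CXCL3: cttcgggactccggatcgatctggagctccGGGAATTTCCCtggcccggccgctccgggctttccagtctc
CXCL8: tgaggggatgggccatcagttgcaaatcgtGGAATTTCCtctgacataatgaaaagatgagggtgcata
CCL20: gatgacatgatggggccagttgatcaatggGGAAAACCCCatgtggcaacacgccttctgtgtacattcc
NFKBIA: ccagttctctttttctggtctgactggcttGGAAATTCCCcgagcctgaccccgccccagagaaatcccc
TNFAIP3: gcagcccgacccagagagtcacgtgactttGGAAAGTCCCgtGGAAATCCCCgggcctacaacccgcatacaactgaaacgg
NFKB1: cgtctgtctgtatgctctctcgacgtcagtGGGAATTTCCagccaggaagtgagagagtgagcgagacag

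These stretches are chr4:73869284-73869354 (+) for CXCL1, chr4:74099233-74099303 (-) for CXCL2, chr4:74038728-74038798 (-) for CXCL3 and chr4:73740448-73740516 (+) for CXCL8. CCL20 is at chr2:227813733-227813802 (+), NFKBIA at chr14:35404791-35404860 (-), TNFAIP3 at chr6:137867162-137867243 (+) and NFKB1 at chr4:102501280-102501349 (+). Counted from the gene start, with minus for upstream, the capitals begin at -79 in CXCL1 and CXCL3, at -78 in CXCL2, at -91 in CXCL8 and at -81 in NFKBIA. Near the site, 89.9% of 69 aligned positions were the same in CXCL1 and CXCL3, 81.2% in CXCL1 and CXCL2, and 75.4% in CXCL2 and CXCL3. The same stretch of CXCL8 shared between 36.2% and 37.7% with those genes. The stretches were aligned on GGAATTTCC, which all of these genes hold, so those positions match by design in every pair. The windows of the 4 CXC genes lay within 359.0 kb of chromosome 4, and those of CXCL1, CXCL2 and CXCL3 within 230.0 kb.

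The 10-base kappaB consensus, read on both strands, occurred in 2075 of 35116 RefSeq windows of this length (5.91%) and in windows of 8 of the 10 genes: BIRC3, CCL20, CXCL1, CXCL2, CXCL3, NFKB1, NFKBIA and TNFAIP3. The 9-base core GGAATTTCC, also read on both strands, which overlaps the consensus, was chosen after the windows had been read, and CXCL8 matched it but not the longer motif. The core stood in 162 windows (0.461%) and in those of CXCL1, CXCL2, CXCL3, CXCL8, NFKB1 and NFKBIA. TNFAIP2 had neither motif in its window at chr14:103123211-103123510 (+). That window is shown whole because TNFAIP2 was the gene that differed most clearly between treated and control tumours.
TNFAIP2: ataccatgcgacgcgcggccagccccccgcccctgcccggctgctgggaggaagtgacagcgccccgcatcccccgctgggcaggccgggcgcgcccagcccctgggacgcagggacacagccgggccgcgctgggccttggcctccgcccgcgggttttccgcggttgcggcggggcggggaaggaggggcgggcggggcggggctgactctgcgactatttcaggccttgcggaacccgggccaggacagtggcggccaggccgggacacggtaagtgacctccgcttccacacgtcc
A match is a stretch of letters and no measure of binding, which was not assayed.

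Each array detected between 17993 and 19478 of 47323 probes. Controls and treated tumours lay apart on the first principal component (41.9% of the variance). Replicate 2 at 87.5 mg/kg stood apart on the second component (17.6%), at 39.7 against -25.9 to 18.9 for the other 11 arrays, and the results below that rest on it are also given without it. Epithelial markers were bright in every tumour: EPCAM, a surface marker of epithelium, had log2 signals from 14.40 to 15.03, and KRT8, a keratin of simple epithelia, from 14.79 to 15.34. Of 7 epithelial markers KRT18 was weak, detected on 2 control and 1 treated arrays. In treated tumours the keratins KRT7 (-1.01, adjusted p = 0.00194) and KRT19 (-0.64, adjusted p = 0.0107) and the cadherin CDH1 (-0.59, adjusted p = 0.00689) were lower on the log2 scale, and NKX2-1, a lung lineage factor, was higher (0.70, adjusted p = 0.00802). The probes are those of human genes, and the host cells of a xenograft are murine. How far host RNA bound the probes was not tested.

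Over the 8 tested genes, 1 was called between all treated tumours and the controls in the limma fit across all genes (adjusted p under 0.05), against 18.8% of all 12300 genes. By direction, 1 of 8 was higher and 0 were lower, against 9.88% and 8.97% of all genes. Unadjusted p was under 0.05 for 2 of the 8, against 33% of all genes. The median log2 difference was -0.18 over the 8 genes and 0.02 over all genes. Full separation, with all 10 treated tumours beyond both controls, occurred for NFKB1 and TNFAIP2, 2 of 8, against 22.5% of all genes. The share called was thus not above the background. In bulk tumour RNA, fewer cells of a type and less RNA per cell cannot be told apart.

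**Figure D1:**
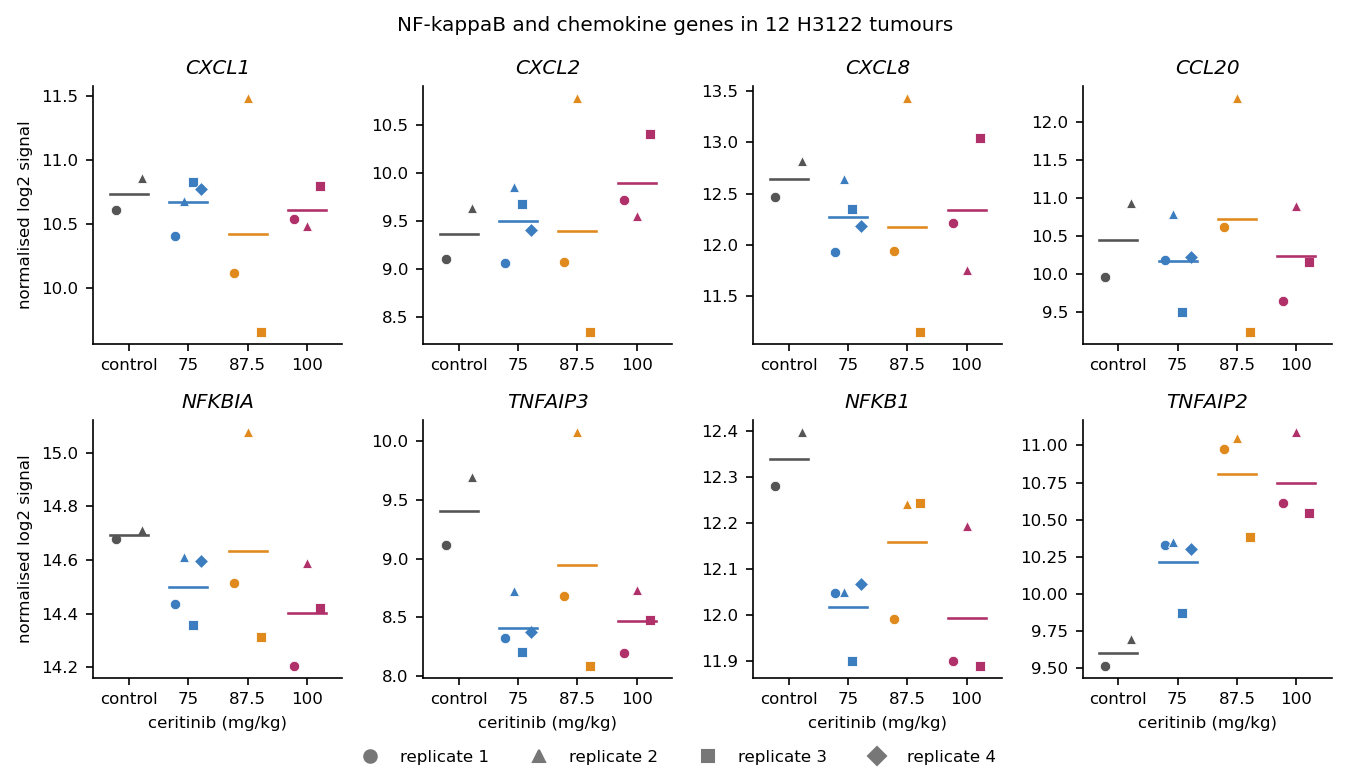
Normalised log2 signal of the 8 tested genes (vertical axes) in each of 12 tumours by ceritinib dose in mg/kg (horizontal axes), with replicate numbers as symbols and group means as lines. All 10 treated tumours exceed both controls for TNFAIP2 and fall short of both for NFKB1, while for CXCL1, CXCL2, CXCL8 and CCL20 the 87.5 mg/kg group holds both the highest and the lowest tumour.

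None of the 4 tested chemokine ligands was called between treated and control tumours, and with all 12 tumours each difference was smaller than its standard error. CXCL8, the classical neutrophil attractant also called interleukin-8, had log2 signals of 12.46 and 12.82 in the controls. At 75 mg/kg the 4 tumours had 11.93, 12.64, 12.35 and 12.18, at 87.5 mg/kg 11.95, 13.43 and 11.15, and at 100 mg/kg 12.22, 11.75 and 13.05. Of the 10 treated tumours, 7 lay below both controls, 2 above and 1 between, so the groups overlapped. The difference was -0.38 (SE 0.46, adjusted p = 0.616), with a 95% interval from -1.40 to 0.64. Without replicate 2 at 87.5 mg/kg it was -0.59 (SE 0.31, adjusted p = 0.200). The second CXCL8 probe gave -0.42 (SE 0.57, adjusted p = 0.661 in a fit over 16291 probes).

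CXCL1 and CXCL2, close relatives that act with CXCL8 on the neutrophil receptor CXCR2, were not called either. CXCL1 had 10.61 and 10.86 in the controls, 10.40, 10.68, 10.83 and 10.78 at 75 mg/kg, 10.12, 11.49 and 9.66 at 87.5 mg/kg, and 10.54, 10.49 and 10.80 at 100 mg/kg. Its treated tumours surrounded the controls, and the difference was -0.17 (SE 0.34, adjusted p = 0.769), or -0.35 (SE 0.16, adjusted p = 0.137) without replicate 2 at 87.5 mg/kg. CXCL2 had 9.10 and 9.63 in the controls, 9.06, 9.85, 9.68 and 9.41 at 75 mg/kg, 9.07, 10.79 and 8.34 at 87.5 mg/kg, and 9.72, 9.55 and 10.40 at 100 mg/kg. Here 5 treated tumours lay above both controls and 3 below, and the difference was 0.23 (SE 0.47, adjusted p = 0.779, 95% interval -0.81 to 1.27). Without that same tumour it was -0.0012 (SE 0.28, adjusted p = 0.998). The mature messages of CXCL1, CXCL2 and CXCL3 are alike, and whether their probes share signal was not tested.

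CCL20, which attracts lymphocytes and dendritic cells through the receptor CCR6, was the most variable of the 8 genes. The controls had 9.97 and 10.93, the tumours at 75 mg/kg 10.18, 10.79, 9.50 and 10.22, those at 87.5 mg/kg 10.62, 12.32 and 9.24, and those at 100 mg/kg 9.66, 10.90 and 10.16. Most treated tumours (6 of 10) lay between the controls. The difference was -0.07 (SE 0.61, adjusted p = 0.954, 95% interval -1.41 to 1.27), an interval that leaves room for a change of either sign by more than 2-fold. Without replicate 2 at 87.5 mg/kg it was -0.34 (SE 0.43, adjusted p = 0.618).

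The inhibitors that NF-kappaB itself induces were lower in most treated tumours, but neither passed the threshold. TNFAIP3, the ubiquitin-editing enzyme A20 that ends signalling from tumour necrosis factor receptors, had 9.12 and 9.70 in the controls. It had 8.33, 8.72, 8.21 and 8.37 at 75 mg/kg, 8.68, 10.08 and 8.08 at 87.5 mg/kg, and 8.20, 8.73 and 8.47 at 100 mg/kg. Thus 9 of 10 treated tumours lay below both controls, and replicate 2 at 87.5 mg/kg lay above both. With all 12 tumours the difference was -0.80 (SE 0.38, adjusted p = 0.170). Without that tumour TNFAIP3 was lower by the test, at -0.99 (SE 0.21, adjusted p = 0.00790), a setting in which 23.2% of all genes were called.

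NFKBIA, which encodes the inhibitor IkappaBalpha, had 14.68 and 14.71 in the controls. Its treated tumours had 14.44, 14.61, 14.36 and 14.60 at 75 mg/kg, 14.51, 15.08 and 14.31 at 87.5 mg/kg, and 14.20, 14.59 and 14.42 at 100 mg/kg. As for TNFAIP3, 9 of 10 lay below both controls and replicate 2 at 87.5 mg/kg above both. The difference was small, at -0.18 (SE 0.17, adjusted p = 0.501), and did not pass the threshold without that tumour either (-0.26, SE 0.12, adjusted p = 0.157).

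NFKB1, which encodes the precursor p105 and the DNA-binding subunit p50, had the tightest values of the 8 genes. The controls had 12.28 and 12.40. The treated tumours had 12.05, 12.05, 11.90 and 12.07 at 75 mg/kg, 11.99, 12.24 and 12.24 at 87.5 mg/kg, and 11.90, 12.19 and 11.89 at 100 mg/kg. All 10 lay below both controls, without overlap, yet the gap was narrow: the log2 difference was -0.28 (SE 0.12, adjusted p = 0.114). The call depended on the processing: NFKB1 was lower by the test on signals with neither normalization nor background correction (adjusted p = 0.00601), on arrays scaled to one median (0.0249) and with array weights (0.0443).

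TNFAIP2, a gene first found as induced by tumour necrosis factor and linked to membrane nanotubes and cell migration, rose in treated tumours. The controls had 9.51 and 9.70. The treated tumours had 10.33, 10.35, 9.87 and 10.30 at 75 mg/kg, 10.98, 11.05 and 10.38 at 87.5 mg/kg, and 10.61, 11.09 and 10.55 at 100 mg/kg. All 10 treated tumours lay above both controls, the nearest being replicate 3 at 75 mg/kg. The mean was 9.61 ± 0.13 (SD, n = 2) in controls and 10.55 ± 0.39 (SD, n = 10) in treated tumours. With each dose weighted alike the log2 difference was 0.98 (SE 0.20, adjusted p = 0.00620), a 1.98-fold increase with a 95% interval from 0.54 to 1.42 on the log2 scale. The call was lost without control replicate 1 (0.89, adjusted p = 0.0973), where 1 control remained and 719 genes in all were called. Without replicate 2 at 87.5 mg/kg it held (0.94, adjusted p = 0.00668).

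TNFAIP2 is also made by endothelial and myeloid cells, so markers of host and stromal cells are given beside it. Of 10 macrophage and monocyte markers 6 did not pass the detection filter (PTPRC, CSF1R, MRC1, ITGAM, LYZ and MARCO), and of the 4 tested 1 rose. That was CD163, a scavenger receptor, detected on 0 of 2 control and 10 of 10 treated arrays with log2 signals from 6.16 to 7.17 when treated (adjusted p = 0.000383). The summed linear signal of the 4 tested macrophage markers was 4058 to 7068 in controls and 5563 to 9116 in treated tumours. Of 6 endothelial markers 2 were not detected (TEK and EMCN), and VWF, von Willebrand factor, rose by a log2 difference of 2.02 (SE 0.39, adjusted p = 0.00493). The summed linear signal of the 4 tested endothelial markers was 653 to 714 in controls and 935 to 1491 in treated tumours, so those ranges did not overlap. Of 7 fibroblast markers 4 did not pass the detection filter (COL3A1, DCN, PDGFRB and PDGFRA), though DCN was detected on 1 treated array. The 3 tested fell. COL1A2 was detected on only 3 of 10 treated arrays, so the size of its fall is uncertain. COL1A1 and COL1A2, chains of type I collagen, had log2 differences of -0.74 and -1.01, and LUM had -2.17 (adjusted p = 0.0260, 0.0268 and 0.0186). Their summed linear signal was 1734 to 1774 in controls and 519 to 1409 in treated tumours, also without overlap. Of 6 lymphocyte markers 3 were not detected (CD3D, CD3E and MS4A1), CD79A was higher (0.56, adjusted p = 0.0240) and CD2 lower (-1.11, adjusted p = 0.0260). CD2 was detected on only 6 of 10 treated arrays, so the size of its fall is uncertain. The summed signal of the 3 tested lymphocyte markers was 282 to 285 in controls and 209 to 340 in treated tumours. As host cells are murine and the probes human, these values give no count of endothelial, stromal or immune cells. Which cells gave these signals, and the part of such cells in the TNFAIP2 result, was not tested.

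Neutrophils are the cells that CXCL1, CXCL2 and CXCL8 attract, and 6 of 7 neutrophil markers were detected on no array: CSF3R, MPO, ELANE, S100A12, CXCR2 and CEACAM8. The remaining marker, FCGR3B, was detected on all 12 arrays with a log2 difference of 0.03 (SE 0.10, adjusted p = 0.890). Its linear normalised signal was 162 to 178 in controls and 160 to 186 in treated tumours. Since host neutrophils are murine and the probes human, these values give no count of neutrophils.

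Dose by dose, TNFAIP2 was again the gene past the threshold. At 75 mg/kg 0 of 8 genes were called, against 14.5% of all genes. Unadjusted p was under 0.05 at that dose for 3 of 8 (NFKB1, TNFAIP2 and TNFAIP3), against 30.1% of all genes. TNFAIP2 stood at 0.61 there on the log2 scale (SE 0.22, adjusted p = 0.0934) and TNFAIP3 at -1.001 (SE 0.42, adjusted p = 0.138). At 87.5 mg/kg 1 of 8 was called, against 6.18% of all genes: TNFAIP2, at 1.20 (SE 0.23, adjusted p = 0.0133). At 100 mg/kg 1 of 8 was called, against 22.1% of all genes: TNFAIP2, at 1.14 (SE 0.23, adjusted p = 0.00563). These comparisons share the 2 control tumours.

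Leaving out replicate 2 at 87.5 mg/kg changed the count at every dose. TNFAIP3 was then lower by the test at 75 mg/kg (-1.001, SE 0.23, adjusted p = 0.0142) and at 87.5 mg/kg (-1.03, SE 0.27, adjusted p = 0.0450), and also at 100 mg/kg. CXCL1 was lower at 87.5 mg/kg, where 2 tumours were left, at -0.85 (SE 0.20, adjusted p = 0.0295). In that setting 18.4%, 7.93% and 26.5% of all genes were called at 75, 87.5 and 100 mg/kg.

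**Figure D2:**
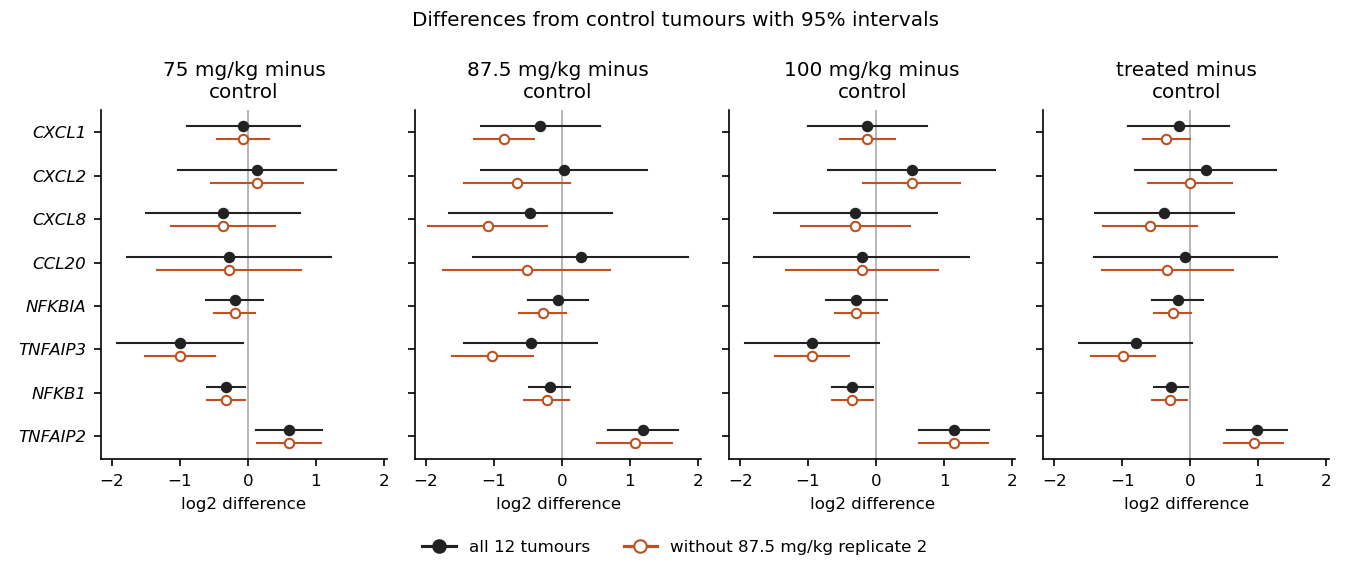
Log2 differences from the control tumours (horizontal axes) with 95% intervals for the 8 genes, by dose and for all treated tumours, with all 12 tumours (filled) and without replicate 2 at 87.5 mg/kg (open). TNFAIP2 lies to the right of 0 in all panels, and the intervals of the chemokines, NFKBIA and TNFAIP3 are narrower when that tumour is left out.

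Between doses 0 of 8 genes were called in any of the 3 comparisons. The background was 0.667% of all genes for 100 against 75 mg/kg, 0.78% for 100 against 87.5 mg/kg and 0% for 87.5 against 75 mg/kg. In limma's fit of the last comparison 1036 of 12300 genes had an unadjusted p under 0.05. TNFAIP2 came nearest, with the 75 mg/kg mean below the others: the log2 difference was 0.54 (SE 0.20, adjusted p = 0.219) for 100 against 75 mg/kg and 0.59 (SE 0.20, adjusted p = 0.507) for 87.5 against 75 mg/kg. At 100 against 87.5 mg/kg it was -0.05 (SE 0.21, 95% interval -0.52 to 0.41). In that comparison, without replicate 2 at 87.5 mg/kg, CXCL1 and CXCL2 came nearer to the threshold but did not pass it. CXCL1 stood at 0.72 (SE 0.18, adjusted p = 0.0713) and CXCL2 at 1.19 (SE 0.32, adjusted p = 0.0884), where 2.26% of all genes were called. The TNFAIP2 values at 87.5 and 100 mg/kg overlapped. The highest at 75 mg/kg was 10.35 and the lowest at either higher dose 10.38, a narrow gap. The share of all genes set apart between doses in this way was not counted.

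The chemokines and TNFAIP3 varied widely among tumours of one group, much of it through replicate 2 at 87.5 mg/kg. The within-group SD was 0.92 log2 units for CCL20, 0.71 for CXCL2, 0.70 for CXCL8, 0.57 for TNFAIP3 and 0.50 for CXCL1, against a median of 0.215 over all tested genes. Those values lay at the 99.5th, 98.5th, 98.3rd, 96.4th and 94.3rd percentiles of 12300 genes. TNFAIP2 (0.28), NFKBIA (0.23) and NFKB1 (0.13) lay at the 68.1st, 55.6th and 15.2nd. From the lowest to the highest tumour CCL20 spanned 8.43-fold, CXCL2 5.45-fold, CXCL8 4.86-fold, TNFAIP3 3.99-fold and CXCL1 3.55-fold. Without replicate 2 at 87.5 mg/kg the within-group SD was 0.66 for CCL20 (98.7th percentile), 0.46 for CXCL8 (94.5th) and 0.41 for CXCL2 (91.2nd). It was 0.30 for TNFAIP3 (78.7th), 0.21 for CXCL1 (54.3rd) and 0.14 for NFKBIA (26.8th), against a median of 0.196, so the wide spread of CXCL1 and TNFAIP3 rested on that tumour. The ranges were then 3.23-fold for CCL20, 4.17-fold for CXCL2, 3.72-fold for CXCL8, 3.06-fold for TNFAIP3 and 2.30-fold for CXCL1.

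Both ends of that range lay at 87.5 mg/kg. Replicate 2 there was the highest of all 12 tumours for CXCL1, CXCL2, CXCL8, CCL20, NFKBIA and TNFAIP3, and replicate 3 the lowest for all of these but NFKBIA. Among the 10 treated tumours replicate 2 was the highest for 6 of 8 genes (75%), against 18.2% of all genes tested. Replicate 3 was the lowest treated tumour for 5 of 8 (62.5%), against 8.46% of all genes. In the wider lists, which hold the tested members too, it was the lowest for 6 of 17 chemokines and receptors and 4 of 15 inhibitors and negative regulators. It was so for 4 of 47 other reported NF-kappaB targets (8.51%), 2 of 23 adaptors and kinases, 0 of 5 subunit genes and 0 of 9 pathway receptors. In those lists replicate 2 was the highest treated tumour for 9 of 15 inhibitors and negative regulators and 27 of 47 other reported NF-kappaB targets. It was so for 4 of 5 subunit genes, 5 of 17 chemokines and receptors, 2 of 9 pathway receptors and 6 of 23 adaptors and kinases. The 5 chemokines and receptors include CXCL1, CXCL2, CXCL8 and CCL20, and the 9 inhibitors include NFKBIA and TNFAIP3, all counted above. LUM, a collagen-binding proteoglycan of fibroblasts, was also highest among treated tumours in replicate 2 (9.58, where treated tumours began at 6.56). So was COL1A2 (6.77), while COL1A1 had 9.06, within a treated range of 8.41 to 9.60. Endothelial markers were mixed in that tumour: VWF was the lowest among treated tumours (6.67) and PECAM1 the highest (6.95). PECAM1 was detected on only 3 of 10 treated arrays. KDR had 7.51, within a treated range of 5.89 to 7.61, and CDH5 had 9.04, within 8.77 to 9.60. The part of stromal cells in these values was not tested.

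Over all 12 tumours 6 of the genes varied together in 2 sets of 3. The sets were not planned and were drawn from these data, so higher values within than between them partly reflect that choice. CXCL1, CXCL2 and CXCL8 had Pearson correlations of 0.88 to 0.90 with each other (Spearman 0.76 to 0.86), and CCL20, NFKBIA and TNFAIP3 of 0.85 to 0.91 (Spearman 0.80 to 0.92). Without replicate 2 at 87.5 mg/kg the ranges were 0.81 to 0.85 and 0.69 to 0.83. Without the 2 tumours farthest from the median they were 0.61 to 0.71 and 0.63 to 0.85. Between the sets the correlations were 0.49 to 0.69, and 0.07 to 0.49 without replicate 2, so much of the link between the sets rested on that tumour. As deviations from group means the sets were linked at 0.68 to 0.88. NFKB1 had correlations of -0.25 to 0.66 with the other 7 genes. TNFAIP2 had -0.25 to 0.44 over the 12 tumours, but its deviations from group means correlated at 0.84 with CCL20, 0.73 with NFKBIA and 0.70 with TNFAIP3. Among the 10 treated tumours the plain correlations were 0.68, 0.50 and 0.63. All of these values include replicate 2 at 87.5 mg/kg. Over the controls and treated tumours without it, the plain correlations of TNFAIP2 were 0.23 with CCL20, -0.32 with NFKBIA and -0.41 with TNFAIP3. Its deviations from group means were not correlated without that tumour. These are descriptions over 12 tumours that share arrays, normalization and the difference between treated and control, and they carry no test.

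**Figure D3:**
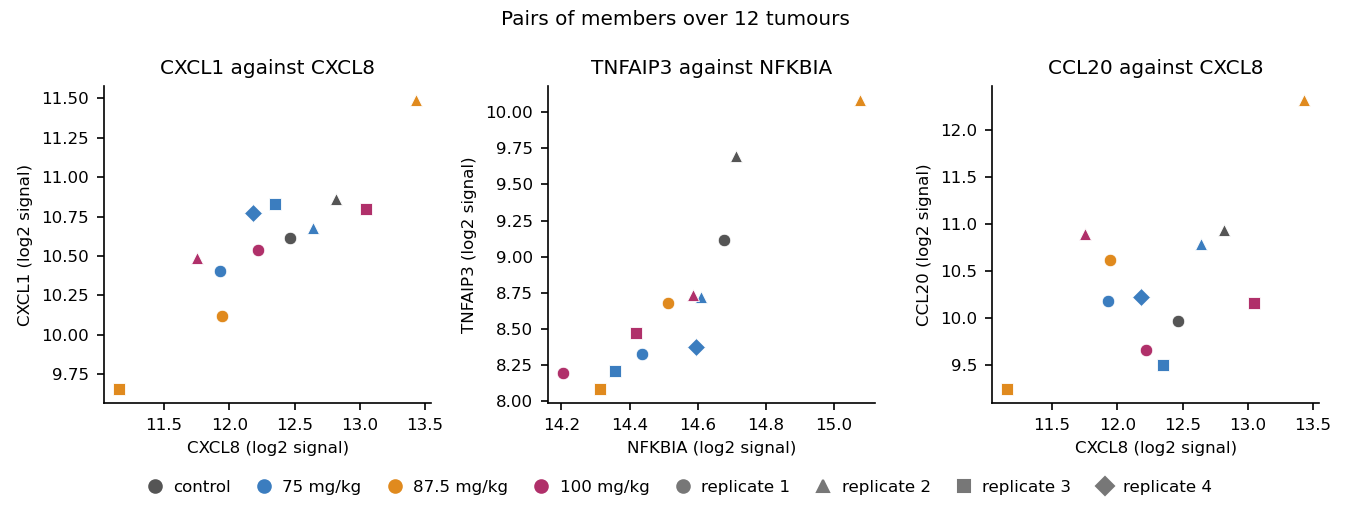
Normalised log2 signals of 3 gene pairs in the 12 tumours, with colour for dose and symbol for replicate. CXCL1 rises with CXCL8 and TNFAIP3 with NFKBIA across the tumours, while in CCL20 against CXCL8 the 2 tumours at the ends, replicates 2 and 3 at 87.5 mg/kg, carry most of the slope.

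By likeness of pattern over the 12 tumours, the genes nearest to TNFAIP2 were MAPRE3 (r = 0.977), RAB24 (0.954) and NT5C3B (0.953). Nearest to NFKB1 were PPP1R11 (0.908), SSBP2 (0.903) and TTLL5 (0.899). Nearest to TNFAIP3 were GJB2 (0.953), ATL3 and SPOCK1 (both 0.944), and nearest to NFKBIA were JUN (0.934), DEPP1 (0.925) and EDN2 (0.913). CXCL8 was closest to VPS33A (0.946), TGFA (0.926) and HAS2 (0.923). JUN encodes a subunit of AP-1, and TGFA encodes a ligand of the EGF receptor. These were the highest of 12299 correlations for each gene, so their height reflects that selection.

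The rest of the pathway was read through lists of genes by role. The lists were chosen with earlier results of these data known, so their shares beside all genes are descriptions and no test. Few genes of the machinery downstream of the receptors passed the threshold. Of 5 NF-kappaB subunit genes 0 were called, with a median log2 difference of -0.13 against 0.02 over all genes. RELA, the main activating subunit, had -0.13 (SE 0.14, adjusted p = 0.556), RELB -0.07 (SE 0.21), NFKB2 0.09 (SE 0.34) and REL -0.46 (SE 0.26, adjusted p = 0.259). REL passed the threshold without replicate 2 at 87.5 mg/kg (-0.58, adjusted p = 0.0324). Of 15 inhibitors and negative regulators 1 was lower, 6.67% against 18.8% of all genes. That gene was NFKBIZ, a nuclear IkappaB protein that coactivates some targets, which fell from 13.47 and 13.49 in the controls to between 12.19 and 13.27 (-0.72, SE 0.16, adjusted p = 0.0113). The call was lost without control replicate 1 (adjusted p = 0.101) or 2 (0.0889). BCL3, another nuclear IkappaB protein, had -0.93 (SE 0.37, adjusted p = 0.108) and was lower by the test without replicate 2 at 87.5 mg/kg (-1.10, adjusted p = 0.0105). NFKBID had 0.48 (SE 0.20, adjusted p = 0.126) and RNF11, a partner of A20, -0.36 (SE 0.20, adjusted p = 0.241).

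Of 9 tested receptors that feed the pathway, 5 were lower and 1 was higher, 66.7% against 18.8% of all genes, with a median log2 difference of -0.50. IL1RAP, the shared chain of interleukin-1 family receptors, had 9.80 and 9.86 in the controls and 7.86 to 8.75 in treated tumours, with no overlap. It fell by 1.61 on the log2 scale (SE 0.17, adjusted p = 0.000125), and that call held in all 23 alternatives. IL1R1, the signalling receptor of interleukin-1, had 10.66 and 10.68 in the controls and a treated median of 9.13, with 9 of 10 tumours below both controls (-1.30, SE 0.33, adjusted p = 0.0190). TNFRSF12A, the receptor of the cytokine TWEAK, fell from 12.11 and 12.14 to between 8.87 and 11.26 (-1.56, SE 0.35, adjusted p = 0.00996). TNFRSF1A, the main receptor of tumour necrosis factor, fell in all 10 tumours by a smaller amount (-0.50, SE 0.12, adjusted p = 0.0158). The other receptor that fell was TLR5, the flagellin receptor (-0.54, SE 0.17, adjusted p = 0.0482). It was detected on 2 control but only 3 of 10 treated arrays, so the size of its fall is uncertain. CD40, a receptor of the non-canonical branch, was detected on 0 of 2 control and 8 of 10 treated arrays and was at least 1.30-fold higher (adjusted p = 0.0310). The calls of IL1R1, TNFRSF12A and TNFRSF1A were lost without either control, and that of IL1R1 also with the treated tumours as 1 group (adjusted p = 0.0541). Without 1 control the list held 1 call of 9 in either case, against 5.88% of all genes without control replicate 1 and 9.91% without control replicate 2.

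Among 23 adaptors and kinases 2 were lower and 1 was higher, 13% against 18.8% of all genes. TRAF5, an adaptor of tumour necrosis factor receptors, fell by 1.09 on the log2 scale (SE 0.18, adjusted p = 0.00201). MYD88, the adaptor of interleukin-1 and Toll-like receptors, fell by 0.40 (SE 0.10, adjusted p = 0.0208), a call lost in 4 of 23 alternatives: without either control, with a replicate block (adjusted p = 0.0806) and with the treated tumours as 1 group (0.0725). MAP3K14, the kinase NIK of the non-canonical branch, was higher by 0.64 (SE 0.20, adjusted p = 0.0454), and this call changed in 15 of 23 alternatives. TRAF3, which keeps NIK low, had -0.53 (SE 0.17, adjusted p = 0.0528) just outside the threshold. Without control replicate 1 the calls of all 3 were lost, TRAF5 narrowly (adjusted p = 0.0518), and without control replicate 2 that of TRAF5 held.

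Of 17 tested chemokines and chemokine receptors, the 4 ligands among them, 2 were higher and 1 was lower, 17.6% against 18.8% of all genes. CXCL17, a mucosal chemokine of the airways, had 8.67 and 8.19 in the controls and 9.40 to 10.34 in treated tumours, with all 10 above both. It rose by 1.41 on the log2 scale (SE 0.19, adjusted p = 0.000545), and the call held in all 23 alternatives. CXCL12, the ligand of CXCR4, was detected on 0 of 2 control and 6 of 10 treated arrays and was at least 1.04-fold higher (adjusted p = 0.0444), a call that changed in 17 of 23 alternatives. CXCR1, a receptor of CXCL8, fell from 7.73 and 7.49 to between 6.06 and 6.96 (-1.08, SE 0.21, adjusted p = 0.00543), but not past the threshold without control replicate 1 (adjusted p = 0.0940). CCL28, a mucosal ligand of CCR10, had 0.76 (SE 0.26, adjusted p = 0.0669), and was higher by the test without replicate 1 at 87.5 mg/kg (adjusted p = 0.0204).

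Of the other reported NF-kappaB targets, 10 of 47 were lower and 2 higher, 25.5% against 18.8% of all genes, with a median log2 difference of -0.30. F3, which encodes tissue factor, had 11.00 and 11.46 in the controls and 8.59 to 10.27 in treated tumours (-2.03, SE 0.31, adjusted p = 0.00131). PLAU, the urokinase plasminogen activator, fell from 11.25 and 12.01 to between 8.10 and 10.43 (-2.41, SE 0.40, adjusted p = 0.00214). MMP9, a matrix protease, fell by 1.99 on the log2 scale (SE 0.34, adjusted p = 0.00244) and TNFAIP8, an apoptosis regulator, by 1.92 (SE 0.32, adjusted p = 0.00215). For each of these the treated tumours all lay below both controls, where 22.5% of all genes had full separation in either direction. These 4 genes were named for having the smallest p in the list, so such separation follows in part from that choice. The same holds for genes named in this way from the other lists. The calls of F3, PLAU and MMP9 held in all 23 alternatives, and that of TNFAIP8 was lost without control replicate 1 (adjusted p = 0.0542). The 2 higher genes were CD83, a surface protein of activated immune cells (0.74, SE 0.19), and NINJ1, a mediator of membrane rupture (0.77, SE 0.21). Many of these genes also answer to other pathways, including AP-1. Without control replicate 1 the list held 4 calls of 47 and without control replicate 2 it held 5, where 5.88% and 9.91% of all genes were called, so the share was then near the background.

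**Figure D4:**
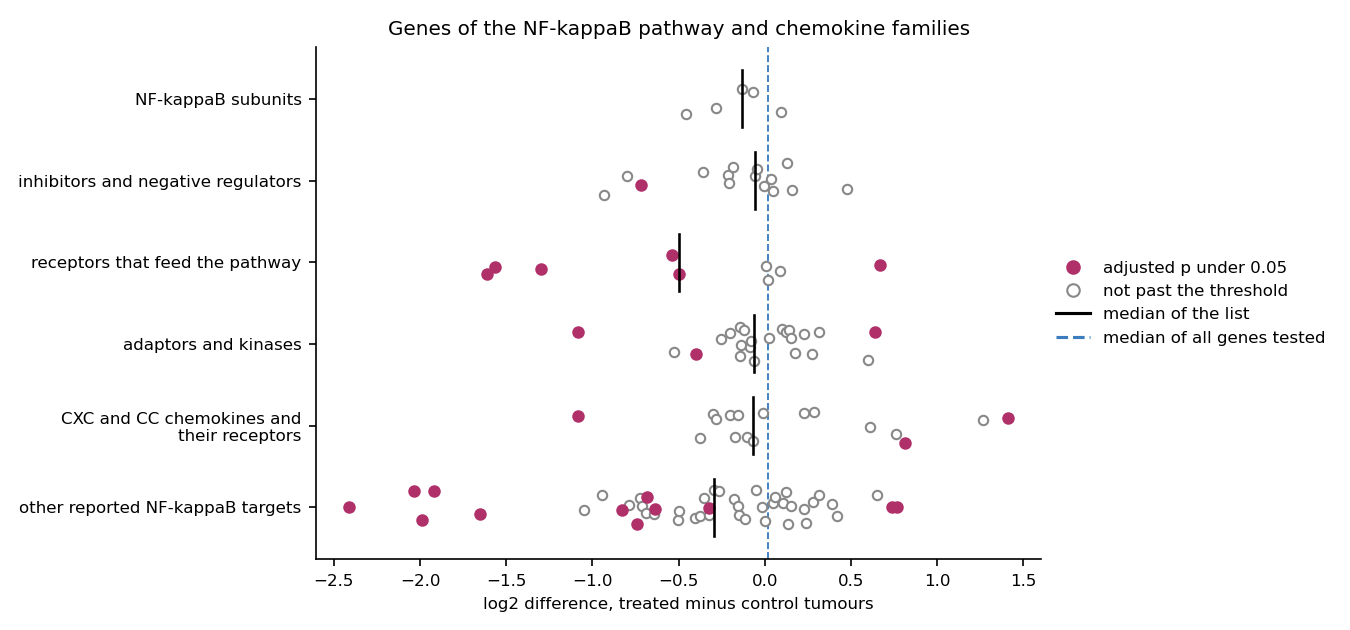
Log2 differences between treated and control tumours (horizontal axis) for the genes of 6 lists (rows), with calls filled, each list's median as a vertical bar and the median of all genes as a dashed line. Receptors have the lowest median (-0.50) and 5 of 9 genes called lower, while 0 of 5 subunit genes were called.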

How the data were processed

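RNA of 12 tumours was purified on columns, labelled as biotinylated cRNA and read on Illumina Expression BeadChips, per the labels' protocols. What the authors deposited was a bead intensity for every probe on every array, linear and spanning 61.2 to 68257, with no sign of normalization or background subtraction. It came as a text table and in a second table of values. A detection p-value accompanied each intensity of the former, per the file headers. Scanner software and batches: not given in the sources used here. Row by row both held equal signals, but the probe identifiers matched at 1 position. GAPDH had a median log2 signal of 14.7 under the value table's identifiers and 8.93 under the others, so the former were used.

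Symbols came from GEO's platform annotation (30113 probes with 1 symbol, 8 with several, 17202 with none), and 30074 probes matched RefSeq. The neqc function of limma 3.58.1 (offset 16, R 4.3.3, package data.table, version 1.17.8) corrected background and applied quantile normalization. A probe was kept if its detection p was below 0.01 on 2 or more arrays, and each gene was read from its brightest kept probe. A single limma fit covered the 4 groups, because the controls held 2 tumours, with Benjamini-Hochberg adjustment over 12300 genes and a threshold of 0.05. Treated against control weights the 3 doses alike. Where no control array detected a gene, each control signal was raised, where lower, to the lowest detected one on its array. Treated signals were left as measured, and the difference gives the "at least" folds. The fit was tested on simulated data. The number of arrays limits the precision.

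The members and lists were chosen with earlier results of these data known. Named genes were all 10 members, the 4 genes per list outside them with the smallest p, the 3 genes most correlated with each of the 5 members of smallest p, and the genes behind any count up to 5, which were chosen after their values were seen. Alternatives changed the background, scaling, offset, detection filter, probe rule, variance model, weights of arrays or doses, groups in the fit, a replicate block and a fold threshold, or left out each tumour. Promoter windows came from RefSeq (GRCh38.p14, 250 bases before to 50 after the start). Plots were made with matplotlib 3.10.9 (Python 3.11.15, pandas 2.3.3).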

Additional observations from a re-analysis of the deposited data

Results flagged for a closer look

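In 32 sets of 4 tumours at 75 mg/kg, 3 had 1 tumour farther from the rest than Dixon's 95% limit for 4 samples allows, where chance alone gives about 1 in 20. For TNFAIP2 the lowest tumour, replicate 3, had 9.87 against 10.30 for the nearest, a gap of 0.906 of the group's range. For NFKB1 the lowest was again replicate 3, with 11.90 against 12.05 (0.874 of the range). For CCL28, a mucosal chemokine, the lowest was replicate 2, with 6.35 against 6.78 (0.889 of the range). Of 96 tests between doses over the named genes 0 passed the threshold.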

How the results depend on the processing

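The treated count of 1 became 3 on unnormalized signals (NFKB1, TNFAIP2, TNFAIP3), 2 on arrays scaled to one median, 3 with array weights and 0 where a 2-fold difference was also required, since TNFAIP2 lay at 1.98-fold. The count of 0 at 75 mg/kg became 2 on unnormalized signals, 1 with median scaling, 2 with array weights, and 2 in a fit of only the groups compared. At 87.5 mg/kg the count of 1 became 2 on unnormalized signals and 0 in a fit of only the groups compared. At 100 mg/kg it became 2 on unnormalized signals, 3 with array weights and 2 in a fit of only the groups compared. That last setting uses every group in the treated comparison and gives no separate value there. Leaving out 1 tumour at a time gave 0 to 2 calls for treated tumours, 0 to 1 at 75 mg/kg, 0 to 3 at 87.5 mg/kg and 0 to 2 at 100 mg/kg. TNFAIP2 itself ranged from 0.70 to 1.13 over 23 alternatives and lost its call in 1, without control replicate 1 (0.89, adjusted p = 0.0973); the tumours left out in turn gave 0.89 to 1.08. Between doses the count was 0 in all 25 alternatives. The 2 scalings that changed NFKB1 also moved the median of all genes, to -0.16 unnormalized and -0.11 with median scaling, and the share of higher among all calls from 52.4% to 18.8% and 32%. Over all genes the count of calls ran from 719 (without control replicate 1) to 3195 (unnormalized), against 2318. The cause of these changes was not tested.

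Replicate numbers did not pair the tumours: deviations from group means had a median correlation of -0.0305 over 15 same-numbered pairs, 4 above 0.1, and 2 of 12 tumours correlated best with their own number. With a replicate block the count at 75 mg/kg was 1 (TNFAIP2), and 1662 genes were called in all.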

Other observations

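At 100 mg/kg 5 of 17 chemokines and receptors were called (29.4%, against 22.1% of all genes), genes chosen after their values were seen. CXCL17 rose by 1.60 on the log2 scale (SE 0.22, adjusted p = 0.000632), and CXCL12 and ACKR3, its scavenging receptor, were detected on 0 of 2 control and 3 of 3 arrays at that dose (adjusted p = 0.0212 and 0.0123). CXCL16 fell by 0.39 (SE 0.13, adjusted p = 0.0478) and CXCR1 by 0.93 (SE 0.25, adjusted p = 0.0225).

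Dose by dose, IL1RAP was the receptor called at each, with log2 differences of -1.61 (SE 0.19) at 75 mg/kg, -1.46 (SE 0.20) at 87.5 mg/kg and -1.77 (SE 0.20) at 100 mg/kg. Of the other reported NF-kappaB targets F3, MMP9 and TNFAIP8 were called at each dose. F3 had -2.25 (SE 0.35), -1.53 (SE 0.37) and -2.31 (SE 0.37) in that order.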
